A study of Mus musculus with 10 samples.

Results

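The wild-type cortical hem (CH) of the mouse at embryonic day 13.5 (e13.5) is described here from 5 RNA-seq libraries, 1 per embryo, of 10 libraries in the series. The 5 were chosen by their labels alone, as the columns of the count table that name a wild-type CH sample, and no genotype is compared. The embryos carried no engineered allele or treatment according to the labels, and the colony was kept on a mixed C57Bl6, FVB and CD1 background. The whole CH of an embryo was cut from coronal brain sections by laser capture microdissection, the pieces from 1 embryo were pooled, and the RNA was sequenced with the SMARTer mRNA-Seq kit. The libraries therefore differ by embryo, and the spread between them holds biological differences, differences in what was cut out and technical differences together. In such bulk samples fewer cells of a type and less RNA per cell cannot be told apart.

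The CH is a signaling center at the dorsomedial edge of the cerebral cortex, between the hippocampal primordium and the choroid plexus. It secretes Wnt and bone morphogenetic protein (BMP) ligands that act on the neighboring hippocampal field, and it is a source of Cajal-Retzius (CR) cells, early neurons that secrete reelin. Wnt ligands bind Frizzled receptors and the coreceptors Lrp5 and Lrp6, while R-spondins keep those receptors at the cell surface by holding back the ubiquitin ligases Znrf3 and Rnf43.

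The libraries held 19407267 to 33130138 counts assigned to genes, with a median of 26931558, and mitochondrial genes took 23.9% to 27.1% of them. Values of 1 gene across embryos are given as CPM, the count of a gene scaled to a common library total. Levels of different genes are compared only as TPM, a like scale in which counts are first divided by the length of the merged exons. The mitochondrial ribosomal RNAs mt-Rnr1 and mt-Rnr2 and the short gene Mir6236 together took 58.7% of all TPM, so TPM of protein-coding genes are lower here than in a scale without them. The protein-coding genes summed to 386255 TPM in embryo 5 and to 335077 to 359470.0 TPM in the others, so TPM of a given gene tended to be highest in embryo 5. A gene was called detected when it reached at least 1 TPM in each of the 5 embryos, which 51.9% of all protein-coding genes did (11374 of 21928). Counts of detected genes in a family are to be read beside that share.

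Embryos 1, 3 and 4 each held an extreme sum for some markers of other cell types and tissues. In embryo 1 the red blood cell markers summed to 1451 CPM, against 638 to 792 in the others. In embryo 3 the 13 choroid plexus markers summed to 147 CPM, against 331 in embryo 4 and 525 to 647 in the others. The 6 markers of cortical projection neurons summed to 537 CPM in embryo 3, against 322 to 361 in the others. In embryo 4, 16 markers of surface ectoderm summed to 1844 CPM, against 88.9 to 272 in the others. That list was chosen after the values were seen. Its count of 16 of 16 highest in embryo 4 was thus in part fixed by the choice and is no independent support. Embryo 4 was highest for 19.9% of all protein-coding genes with a mean of at least 10 CPM. The part that other tissue in the cut had in any level was not tested.

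The 5 markers of the hem were detected in every embryo. Lmx1a, the LIM-homeodomain transcription factor whose protein was used to locate the CH on neighboring sections, lies on chromosome 1 (GRCm38, chr1:167689237-167848741). Its presence is therefore in part a result of how the tissue was chosen. Lmx1a read 77.8, 78.5, 46.8, 59.3 and 91.2 CPM in embryos 1 to 5, a mean of 70.7 ± 17.6 CPM (SD, n = 5). Wnt3a, a canonical Wnt required for the hippocampus to form (chr11:59248033-59290752), read 77.2, 75.0, 45.9, 61.9 and 82.2 CPM, with a mean of 68.4 ± 14.6 (SD, n = 5). Both genes were lowest in embryo 3 and highest in embryo 5. Wnt2b, another hem Wnt (chr3:104945272-104961921), read 178, 170.1, 106, 153 and 144 CPM, with a mean of 150.2 ± 28.3. Lmo2, which encodes a LIM-only adaptor of transcription complexes (chr2:103957986-103981878), read 169, 141, 97.3, 97.6 and 181 CPM, with a mean of 137 ± 39.3. Rspo2, an R-spondin (chr15:43020794-43170826), read 450.3, 581, 295, 415 and 749 CPM, with a mean of 498 ± 173. The 5 markers were thus lowest in embryo 3 in 5 of 5 cases, against 14.7% of all protein-coding genes with a mean of at least 10 CPM, although Lmo2 in embryos 3 and 4 was nearly the same. Summed over the list, the hem markers came to 953, 1045, 591, 787 and 1247 CPM. Without embryo 3 the means were 76.7 CPM for Lmx1a, 74.1 for Wnt3a, 161 for Wnt2b, 147 for Lmo2 and 549 for Rspo2.

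**Figure D1:**
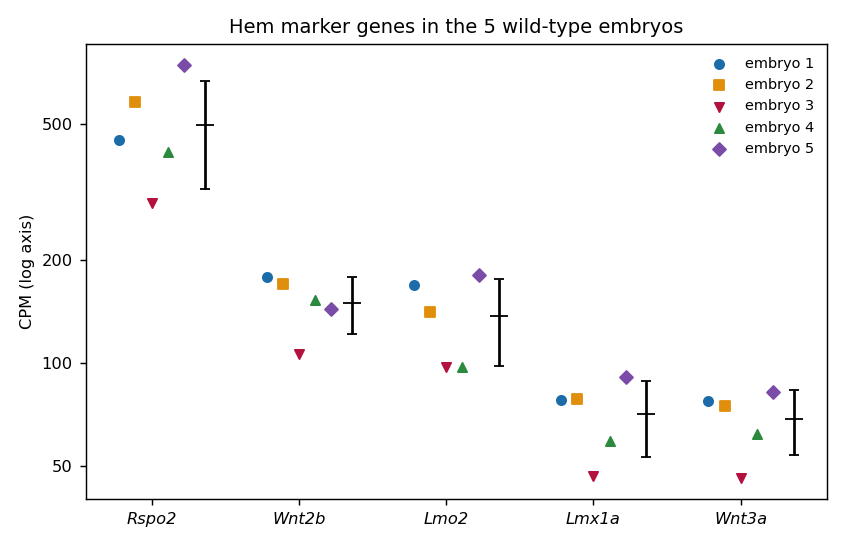
CPM of the 5 cortical hem markers in each wild-type embryo on a log axis, with 1 symbol per embryo and a whisker bar at the mean and 1 SD to either side (n = 5). Embryo 3 is the lowest symbol for each gene, reading 46.8 CPM for Lmx1a against 59.3 to 91.2 in the others, and CPM of different genes are not comparable because no length enters them.

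Secreted ligands of the R-spondin and Wnt families stood at the head of the list of 225 ligand genes. Of the list 95 were detected (42.2%, against the 51.9% of all protein-coding genes). Another 61 stayed under 1 TPM in every embryo and 69 passed in some embryos only. Under some other limits, given below, the share of ligands lay above that of all genes. Rspo1 had the highest mean level of all ligands, 659 ± 155 TPM (SD, n = 5), rank 27 among all protein-coding genes. Its values were 573, 689.9, 396, 508 and 664 CPM in embryos 1 to 5. Wnt8b, a Wnt of the medial cortical edge (chr19:44493472-44514273), followed with 551 ± 151 TPM and was below Rspo1 in each of the 5 embryos. Its values were 866, 941, 615, 706 and 1103 CPM, so the lowest and the highest embryo differed 1.79-fold. Rspo3 came next at 435 ± 126 TPM, from 651, 700.4, 367, 513 and 745 CPM. It was above the heparin-binding growth factor Mdk, at 434 ± 46.0 TPM, in 3 of 5 embryos only, so the order of that pair was within the spread. About 13% of the exons of Rspo3 overlap a gene on the other strand, and the strand setting of the counting is not given in the sources used here. Rspo2 ranked 5th among the ligands at 221 ± 88.9 TPM.

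The R-spondin family summed to 1316 ± 364 TPM, from 1306, 1509, 853, 1109.8 and 1803 TPM in embryos 1 to 5. Of its 4 members 3 were detected (75%, against 51.9% of all protein-coding genes), while Rspo4 stayed under 1 TPM in every embryo. Of 19 Wnt genes, 10 were detected (52.6%, near the 51.9% of all protein-coding genes), and the family summed to 912 ± 194 TPM. After Wnt8b came Wnt5a, the main noncanonical Wnt, with 109 ± 22.7 TPM from 353, 353, 294, 447 and 444 CPM. Wnt2b followed at 80.2 ± 14.2 TPM, Wnt3a at 56.0 ± 13.7, Wnt9a at 39.2 ± 11.9 and Wnt7b at 36.4 ± 6.83 TPM. Wnt4 had a mean of 15.8 ± 18.2 TPM, and its values of 10.9, 35.3, 9.42, 89.6 and 5.68 CPM put embryo 4 highest. Without embryo 4 the mean of Wnt4 was 8.09 ± 6.84 TPM (n = 4). Wnt5b at 6.30, Wnt7a at 5.24 and Wnt10a at 2.01 TPM completed the detected set. Wnt1, the midbrain and dorsal neural tube Wnt, averaged 0.349 TPM and was not detected. Within the family, 6 of the 7 Wnts with a mean of at least 10 CPM and all 3 detected R-spondins were lowest in embryo 3, the exception being Wnt4. Across all protein-coding genes over the same minimum, embryo 3 was lowest for 14.7%.

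Promoters are shown for the hem transcription factor Lmx1a, for Wnt8b as the highest Wnt and for the hem marker Wnt3a. These 3 genes were lowest in embryo 3 and highest in embryo 5. So were the hem markers Rspo2 and Lmo2, which had no RefSeq promoter entry, so the pattern is not particular to the genes shown. The windows of 300 bases run from 250 before to 50 after the RefSeq start on GRCm38.p6. They are written in the direction of transcription. The RefSeq start of Lmx1a lies downstream of the start of the gene span given above, so its window lies within that span. Capitals mark TAATTA, a core that many homeodomain proteins bind, and GGGCGG, the GC box of Sp and Klf factors, each on either strand, so that CCGCCC is the GC box read on the other strand. Overlapping boxes run together.

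Lmx1a, plus strand, chr1:167689308-167689607: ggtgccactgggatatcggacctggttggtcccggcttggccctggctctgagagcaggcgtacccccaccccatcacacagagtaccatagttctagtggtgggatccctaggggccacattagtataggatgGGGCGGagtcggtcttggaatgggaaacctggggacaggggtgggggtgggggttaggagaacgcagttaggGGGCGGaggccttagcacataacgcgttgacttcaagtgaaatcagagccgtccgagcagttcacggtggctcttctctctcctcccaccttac

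Wnt8b, plus strand, chr19:44493222-44493521: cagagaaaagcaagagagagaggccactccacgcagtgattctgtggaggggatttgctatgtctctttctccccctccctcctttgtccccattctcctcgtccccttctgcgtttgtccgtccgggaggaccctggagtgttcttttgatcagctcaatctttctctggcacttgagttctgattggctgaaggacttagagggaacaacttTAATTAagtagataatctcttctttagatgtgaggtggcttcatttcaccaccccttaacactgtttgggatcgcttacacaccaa

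Wnt3a, minus strand, chr11:59290702-59291001: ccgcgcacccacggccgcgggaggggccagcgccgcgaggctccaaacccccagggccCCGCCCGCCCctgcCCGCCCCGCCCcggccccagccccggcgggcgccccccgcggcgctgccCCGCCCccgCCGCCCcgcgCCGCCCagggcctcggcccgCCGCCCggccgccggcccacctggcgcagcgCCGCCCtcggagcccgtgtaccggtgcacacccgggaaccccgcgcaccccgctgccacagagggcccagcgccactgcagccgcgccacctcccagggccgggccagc

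The 3 windows differ in base composition. The Wnt3a window is 86.3% G or C and holds 9 GC boxes, the Lmx1a window is 59.3% G or C with 2 boxes, and the Wnt8b window is 48.3% G or C with no GC box and 1 TAATTA. Of all 32851 promoter windows of this length, 35.7% hold GGGCGG and 5.29% hold TAATTA, and their median G and C content is 52.7%. Of 15 hem markers, R-spondins and detected Wnts that were looked up, 9 had an entry in the RefSeq table. The matches describe letters in these windows and say nothing of which factors bind there.

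Of 14 secreted Wnt antagonists 7 were detected (50%, against 51.9% of all protein-coding genes). The family summed to 321 ± 75.0 TPM. Dkk3, a member of the Dickkopf family, led the antagonists at 166 ± 33.8 TPM. Sfrp1, which binds Wnts outside the cell and is known from the cortical ventricular zone, averaged 64.3 ± 56.6 TPM, and its 107, 85.1, 319, 43.0 and 71.8 CPM put embryo 3 above the rest. Without embryo 3 the mean of Sfrp1 was 39.5 ± 13.4 TPM. Dkk2 had the widest spread of all ligands with a mean of at least 10 CPM, reading 7.38, 19.5, 10.3, 84.7 and 5.09 CPM, with embryo 4 highest, and averaging 10.6 ± 6.31 CPM without it. Of the family, 6 of 7 members over 10 CPM ranged 2-fold or more, against 8.35% of all protein-coding genes over that minimum. It was 4 of 6 without embryo 3 and 4 of 7 without embryo 4.

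As a family, ligands of the BMP group summed to less TPM than the R-spondins or the Wnts, while single genes overlapped. Bmp7, for example, had a mean above that of Wnt3a. Of 30 genes of the BMP, GDF and TGF-beta family, 11 were detected (36.7%, against 51.9% of all protein-coding genes). The family summed to 225 ± 35.6 TPM. Bmp7 was first at 60.03 ± 18.4 TPM, from 93.4, 139, 62.96, 108 and 131 CPM. Bmp6 followed at 44.5 ± 11.8 TPM and Bmp4, a dorsal midline BMP, at 32.3 ± 9.93 TPM. Bmp4 read 28.6, 40.1, 18.4, 45.5 and 29.4 CPM, and its lowest embryo was again embryo 3. Gdf11 averaged 16.3 ± 3.88 TPM and Bmp5 15.1 ± 5.69 TPM, but about 47% of the exons of Bmp5 overlap a gene on the other strand, which makes its level uncertain. Of 15 BMP antagonists 8 were detected (53.3%, near the 51.9% of all protein-coding genes). Fstl1 led them at 150.3 ± 25.3 TPM, followed by Twsg1 at 85.0 ± 6.61 TPM.

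Ligands of the FGF and Hedgehog families were nearly absent. Of 22 FGF genes 3 were detected (13.6%, against 51.9% of all protein-coding genes). The highest, Fgf13 at 29.8 ± 5.33 TPM, encodes an intracellular protein that does not act as a secreted ligand. The secreted Fgf2 averaged 1.66 ± 0.351 TPM. Of 3 Hedgehog genes none was detected. Shh read 0.0728, 0.221, 0, 4.02 and 0 CPM, so its counts came almost wholly from embryo 4. Reelin, the secreted product of CR cells, read 197, 260.4, 129, 141 and 261 CPM, and the long transcript brought its level per length to 18.9 ± 6.58 TPM, rank 36 of the ligands. Among guidance cues Slit2 averaged 49.5 ± 13.0 TPM and Draxin, a chemorepellent for commissural axons that can also block Wnt coreceptors, 91.7 ± 13.5 TPM.

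**Figure D2:**
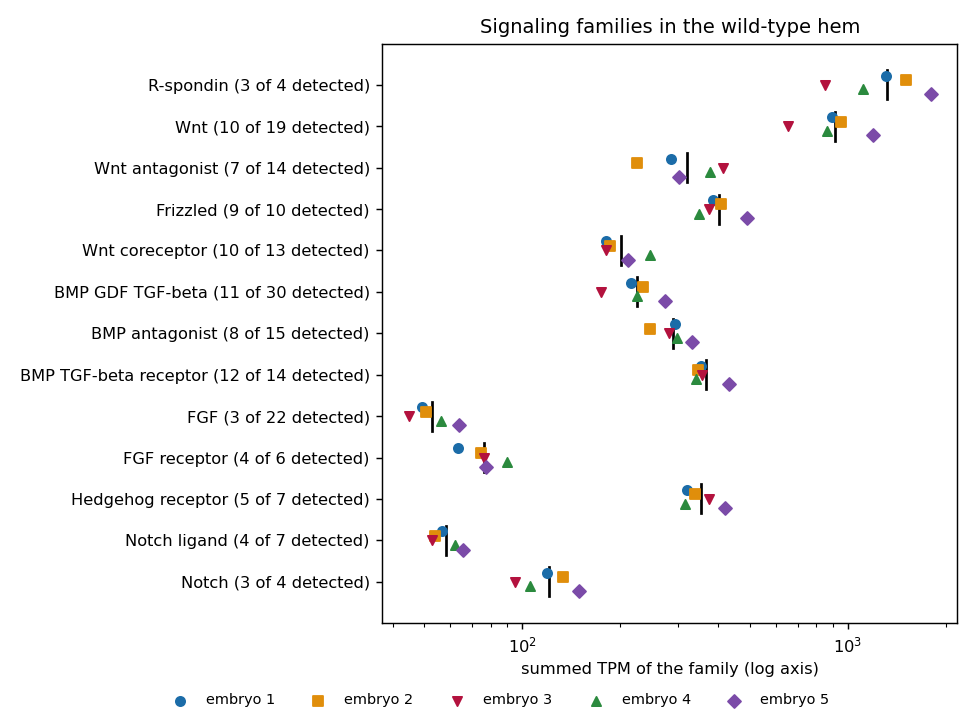
Summed TPM of 13 ligand and receptor families in each wild-type embryo on a log axis, with 1 symbol per embryo, a black bar at the mean, and the number of detected genes of each family in its label. The R-spondin sum of 1316 TPM is the highest and the FGF ligand sum of 52.8 TPM the lowest, and embryo 3 is the lowest symbol for both the R-spondin and the Wnt ligands.

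Of 143 receptor genes 94 were detected (65.7%, against 51.9% of all protein-coding genes), and 27 stayed under 1 TPM in every embryo. Frizzled receptors had the highest mean sum of the receptor families, 401 ± 53.9 TPM, and 9 of 10 (90%) were detected. In embryo 3, however, the Hedgehog receptor group summed to 375 TPM and the Frizzled group to 373 TPM. Fzd3 was the receptor gene with the highest level, 239.6 ± 55.1 TPM, from 1363, 1495, 1094, 1139 and 1691 CPM. Fzd1 averaged 58.3 ± 5.76 TPM, Fzd9 26.6, Fzd2 22.1, Fzd7 17.8, Fzd10 17.1, Fzd6 9.80, Fzd8 5.86 and Fzd4 2.81 TPM, while Fzd5 passed 1 TPM in embryo 4 alone. Of the coreceptors and receptor regulators, Ryk, a receptor for Wnt5a, averaged 51.0 ± 4.84 TPM, and Lrp6 averaged 37.7 ± 4.04 TPM. Lrp6 was among the steadier receptor genes, with 211, 237, 217, 234 and 246 CPM. Znrf3, the ubiquitin ligase that R-spondins hold back, averaged 35.8 ± 5.64 TPM, and Lgr4, the R-spondin receptor, 14.1 ± 6.75 TPM. Lgr4 read 36.1, 30.1, 23.1, 69.8 and 27.5 CPM and was highest in embryo 4, whereas no detected R-spondin was. Without embryo 4 the mean of Lgr4 was 11.2 ± 1.92 TPM.

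BMP and TGF-beta receptors summed to 366 ± 37.4 TPM, with 12 of 14 detected (85.7%, against 51.9% of all protein-coding genes). Their median coefficient of variation (CV, the SD over the mean) was 10.4% among 10 members over 10 CPM. Of those 10, 1 ranged 2-fold or more, against 8.35% of all genes. Bmpr1a, a type I BMP receptor, averaged 88.7 ± 15.5 TPM from 238, 243, 231, 235 and 299.5 CPM. Bmpr2, the type II receptor, averaged 79.9 ± 10.8 TPM. Tgfbr1 read 185, 194, 176, 173 and 181 CPM, a CV of 4.51%, the lowest of the family. Although no Hedgehog ligand was detected, 5 of 7 genes of the Hedgehog receptor group were (71.4%, against 51.9% of all protein-coding genes). The group summed to 354 ± 43.6 TPM. Cdon, a cell-surface coreceptor, averaged 181 ± 35.1 TPM, above the next receptor gene in 5 of 5 embryos, and Gas1 averaged 91.1 ± 24.4 TPM. Ptch1, the receptor proper and a known target of the pathway, averaged 10.6 ± 3.89 TPM. About 20% of the exons of Gas1 overlap a gene on the other strand.

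Epha4, an ephrin receptor, was the steadiest receptor gene with a mean of at least 10 CPM, at 500.2, 481, 494, 481 and 533 CPM and a CV of 4.26%. It ranked 3rd at 139 ± 13.9 TPM and was above the next gene, the netrin receptor Dcc at 92.1 ± 10.6 TPM, in 5 of 5 embryos. Cxcr4, the receptor for the meningeal chemokine Cxcl12 that CR cells follow, averaged 82.6 ± 14.9 TPM. The reelin receptors Lrp8 and Vldlr averaged 61.9 ± 14.6 and 22.1 ± 5.00 TPM, and both were lowest in embryo 3 and highest in embryo 2 on the CPM scale. Of the Notch receptors Notch2 led with 80.4 ± 19.6 TPM, ahead of Notch1 and Notch3 at 19.4 TPM each.

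Of 487 listed transcription factor genes, 293 were detected (60.2%, against 51.9% of all protein-coding genes). Another 111 stayed under 1 TPM in every embryo and 83 passed in some embryos only. Sox11, a factor of newly formed neurons, was first at 443 ± 60.1 TPM (SD, n = 5) and above the next gene in 5 of 5 embryos. It read 1766, 1615, 1776, 1334 and 1688 CPM. The nuclear factors Nfia, at 243 ± 54.8 TPM, and Nfib, at 224 ± 51.2 TPM, stood on either side of Id3, an inhibitor of bHLH factors and a known BMP target, at 225 ± 51.8 TPM. Neighbors among these 3 were ordered the same way in 3 of 5 embryos only. The imprinted zinc finger gene Peg3 at 178 ± 26.8, the E protein gene Tcf4 at 154 ± 24.6, the precursor gene Sox9 at 145 ± 26.1 and Lmo2 at 144 ± 46.7 TPM came next. The hem marker Lmo2 thus ranked 8th of the listed transcription factor genes and Lmx1a 48th, at 47.1 ± 13.6 TPM.

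Of 12 LIM-homeodomain genes 6 were detected (50%, against 51.9% of all protein-coding genes). Lhx2, the selector gene of the cortex that is known to hold back hem fate, was highest at 139 ± 43.9 TPM, from 332, 208, 369.7, 171 and 276 CPM. In contrast to Lmx1a, Lhx2 was highest in embryo 3. Lhx9 averaged 14.0 ± 4.65, Lhx8 10.6 ± 10.8, Lhx1, a CR cell gene, 9.67 ± 3.23 and Lhx6 3.13 ± 2.02 TPM. Lhx8 read 12.1, 5.44, 7.79, 33.8 and 1.97 CPM, with embryo 4 highest, and its mean without embryo 4 was 5.99 ± 3.62 TPM.

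Zic genes encode zinc finger factors of the dorsal midline. Zic1 averaged 101.9 ± 25.99 TPM from 273, 318, 187, 202 and 305 CPM, and Zic2 72.3 ± 19.02 TPM from 104, 119, 66.3, 69.1 and 104 CPM. Zic5 followed at 45.2 ± 14.3 and Zic4 at 21.3 ± 8.20 TPM. These Zic genes were lowest in embryo 3 and, except for Zic5, highest in embryo 2. Other midline factors showed the same low embryo. Otx2, a factor of the midline and the choroid plexus, read 156, 141, 54.5, 106 and 190.1 CPM. The BMP-responsive homeobox gene Msx1 read 34.9, 41.6, 15.8, 45.2 and 33.6 CPM, and Msx2 read 40.5, 48.1, 24.0, 49.6 and 36.4 CPM. Among 13 Emx, Otx, Msx and Dlx genes 9 were detected (69.2%, against 51.9% of all protein-coding genes).

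Transcription factors with known roles in CR cells and dorsal patterning were present at intermediate levels. Trp73, expressed by hem-derived CR cells, read 97.2, 85.5, 54.9, 79.7 and 90.6 CPM, or 33.2 ± 7.17 TPM, and was lowest in embryo 3. Eomes (Tbr2), also on the CR marker list, went another way. Eomes read 98.7, 68.4, 125, 64.7 and 87.1 CPM, or 48.2 ± 13.8 TPM, highest in embryo 3 and lowest in embryo 4. Of the 9 CR markers over 10 CPM, 5 were lowest in embryo 3 and 4 in embryo 4. Across all protein-coding genes over that minimum, these embryos were lowest for 14.7% and 27.7%. Dmrt3 averaged 60.6 ± 12.4 TPM, Emx2 81.2 ± 20.1 TPM and Gli3, which is needed for the hem to form, 104 ± 13.0 TPM. Gli3 varied little, at 413, 463, 455, 404 and 485 CPM. The steadiest of the listed transcription factor genes were the Ets factor Gabpa, with a CV of 2.06%, the E protein Tcf3, with 2.35%, and Hes1, a Notch target, with 2.55%. Hes1 read 55.7, 54.2, 55.4, 53.5 and 52.4 CPM. All 4 Tcf and Lef genes, the DNA-binding partners of beta-catenin, were detected and summed to 57.4 ± 9.27 TPM.

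**Figure D3:**
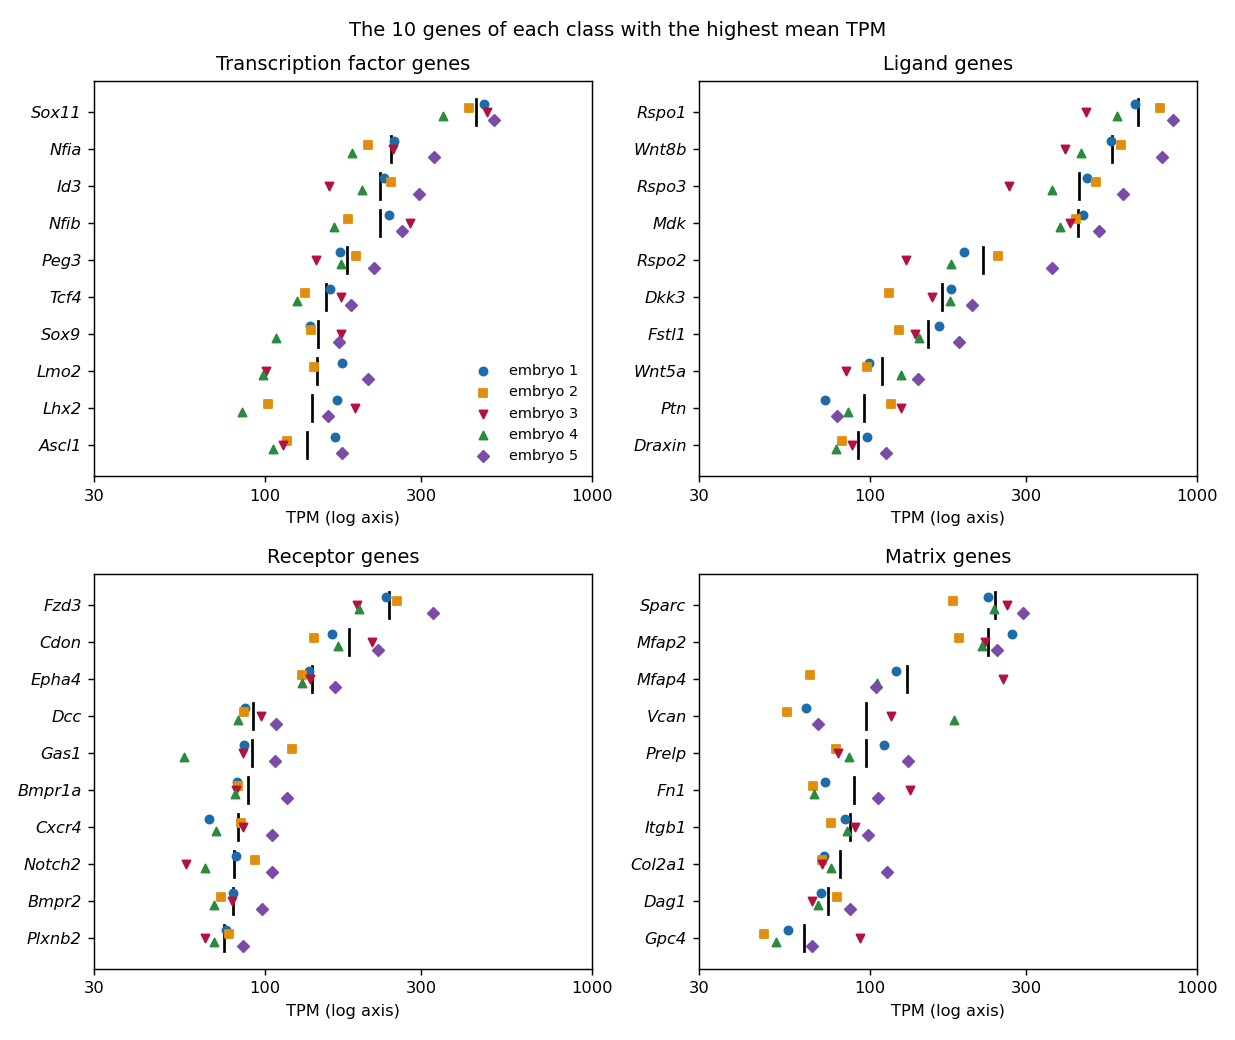
TPM of the 10 highest genes of each class in the 5 wild-type embryos, on a log axis with 1 symbol per embryo and a black bar at the mean. Rspo1 and Wnt8b lead the ligands at means of 659 and 551 TPM, Sox11 the transcription factors at 443, Sparc the matrix genes at 241 and Fzd3 the receptors at 239.6 TPM.

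Of 222 genes of the extracellular matrix and its receptors, 130 were detected (58.6%, against 51.9% of all protein-coding genes). Another 47 stayed under 1 TPM in every embryo. At a limit of 5 TPM, given below, the matrix share lay below that of all genes. Sparc, a collagen-binding matricellular protein, led at 241 ± 42.4 TPM from 395, 314, 444, 416 and 451 CPM. The microfibril proteins Mfap2 and Mfap4 averaged 229.6 ± 31.3 and 130.1 ± 72.8 TPM. Mfap4 read 105, 58.1, 219, 93.0 and 81.2 CPM, and embryo 3 was the highest. Without embryo 3 the mean of Mfap4 was 98.8 ± 23.3 TPM. Versican (Vcan), a large proteoglycan, averaged 97.3 ± 52.6 TPM, and its 419.5, 372, 751, 1204 and 405 CPM were high in embryos 3 and 4. The mean of Vcan was 92.5 TPM without embryo 3 and 76.2 TPM without embryo 4. Fibronectin (Fn1), at 388, 361, 690.2, 361 and 501 CPM, was also highest in embryo 3.

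Collagen genes were detected in 24 of 44 cases (54.5%, against 51.9% of all protein-coding genes) and summed to 419 ± 84.7 TPM. Col2a1 was the highest of them at 80.7 ± 18.1 TPM, from 304, 305, 294, 321 and 423 CPM. Col1a1, the fibrillar collagen of connective tissue, read 133, 60.2, 286, 105 and 146 CPM. The markers of mesenchyme and meninges, a list that includes Col1a1, summed to 609.7, 367, 1051, 752 and 526 CPM, lowest in embryo 2 and highest in embryo 3. The other 9 genes of that list, without Col1a1, summed to 477, 307, 765, 647 and 379.9 CPM. Col1a1 and that sum differed in embryo 4, where Col1a1 was the next to lowest and the sum the next to highest. The part of meningeal tissue in the matrix levels was not tested. Among 18 matrix receptor genes with a mean of at least 10 CPM the median CV was 27.7%, close to the 29.7% of the 21 collagen genes, and single members were steadier. Integrin beta 1 (Itgb1) averaged 86.8 ± 8.41 TPM with a CV of 5.404%, the laminin receptor dystroglycan (Dag1) 74.5 ± 8.44 TPM, agrin (Agrn) 55.5 ± 5.42 TPM and the laminin chain Lamc1 49.1 ± 4.52 TPM.

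The spread over embryos was wider for each class than for protein-coding genes at large. Among genes with a mean of at least 10 CPM the median CV was 19.8% for 243 transcription factors, 24.3% for 75 ligands, 20.1% for 85 receptors and 29.4% for 109 matrix genes. For all 8786 protein-coding genes over that minimum the median CV was 11.5%. Counting error alone would give a median CV of 3.25% for all these genes. For the classes, in the order above, it would give 2.82%, 3.69%, 2.35% and 3.06%. The highest embryo was at least 2-fold above the lowest for 79 transcription factors (32.5%), 33 ligands (44.0%), 24 receptors (28.2%) and 52 matrix genes (47.7%), against 8.35% of all protein-coding genes. Without embryo 3 these shares were 21.2%, 27.0%, 17.9% and 40.0%, with 5.63% of all genes. Without embryo 4 they were 20%, 31.4%, 16.5% and 31.7%, with 5.31% of all genes. The share of each class therefore lay above that of all genes with or without either embryo. No test was made, since members of a class are not replicates and the 5 embryos form a single group.

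**Figure D4:**
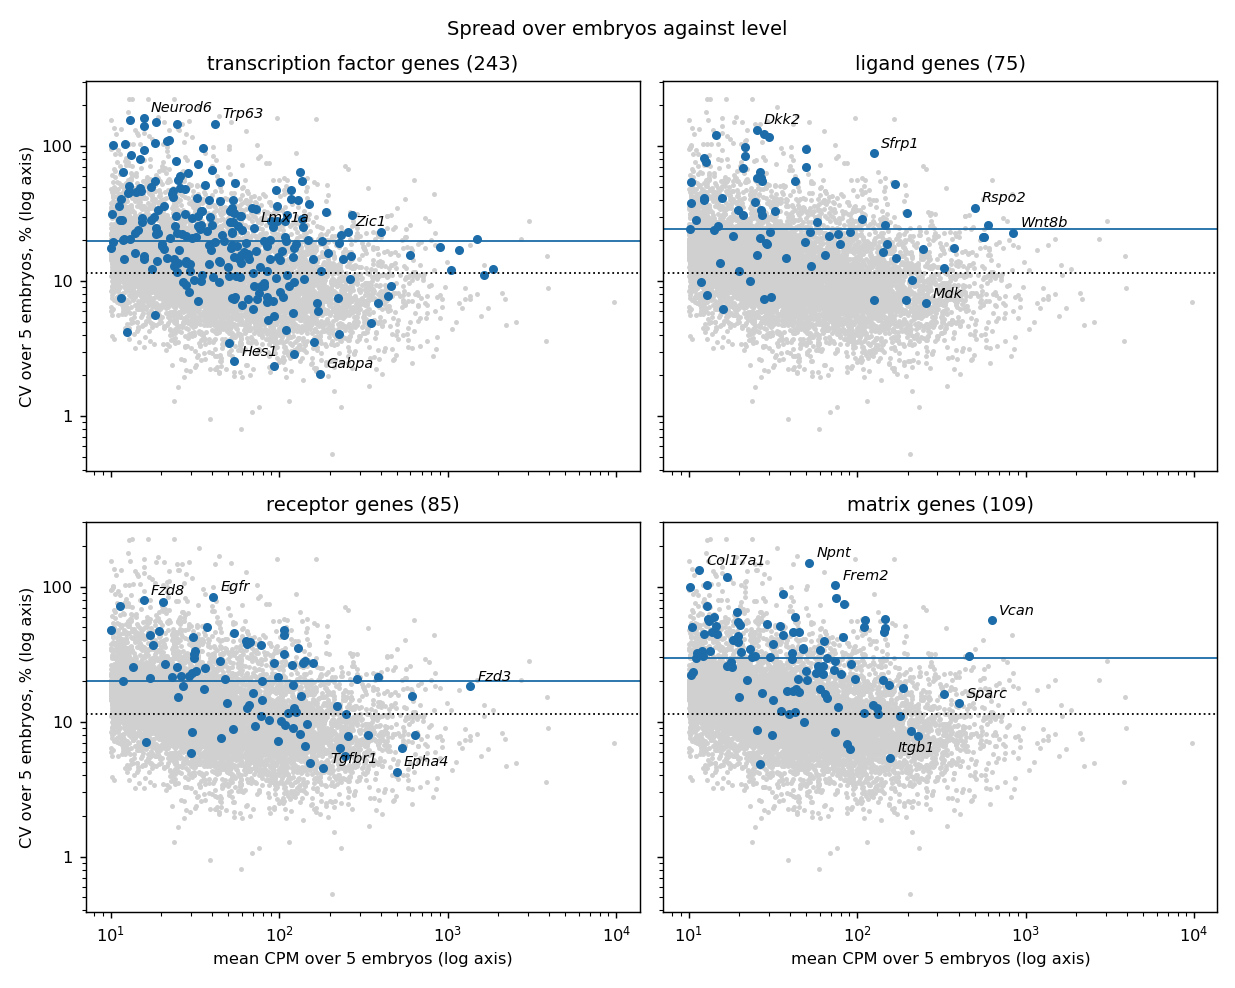
CV over the 5 wild-type embryos in percent against mean CPM, both on log axes, for the genes of each class with a mean of at least 10 CPM (blue, with a line at their median) and for all protein-coding genes over that minimum (gray, with a dotted line at their median). The class medians run from 19.8% to 29.4% against 11.5% for all genes, and the genes with the widest spread reach 161% (Neurod6).

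The widest members in each class followed embryo 4 or embryo 3. A gene could pass the minimum of 10 CPM through 1 high embryo, so this pattern was in part fixed by the filter. Neurod6, Pax3, Klf5 and Col17a1 stayed under 10 CPM in every embryo other than their highest. Of the transcription factors, Neurod6, a gene of cortical projection neurons, read 5.78, 3.67, 61.1, 5.41 and 2.67 CPM, a CV of 161%. Pax3 and Klf5 followed with a CV of 156% and 151%. Pax3 read 3.64, 5.58, 5.19, 49.2 and 1.45 CPM, and embryo 4 alone was high, as it was for Klf5. Of the matrix genes, nephronectin (Npnt) read 12.3, 31.4, 14.9, 192 and 9.88 CPM, and Col17a1, a collagen of epithelial hemidesmosomes, 2.95, 8.14, 6.82, 38.7 and 1.34 CPM. The widest receptors were Egfr, highest in embryo 4 with 98.2 CPM, and Fzd8 and Nrp1, highest in embryo 3 with 37.2 and 47.9 CPM.

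The embryo that was lowest or highest was counted for each class, and the differences between classes were not tested. Embryo 3 was lowest for 23 of 75 ligands (30.7%) and 28 of 85 receptors (32.9%), and for 47 of 243 transcription factors (19.3%) and 18.3% of matrix genes, against 14.7% of all protein-coding genes. Embryo 4 was lowest for 81 of 243 transcription factors (33.3%), against 27.7% of all genes, and embryo 3 was highest for 73 of them (30.04%), against 25.6%. Embryo 3 was also highest for 33.0% of matrix genes, 27.1% of receptors and 22.7% of ligands. Matrix genes were lowest in embryo 2 in 40 of 109 cases, a pattern that held for 22.9% of all genes. They were highest in embryo 4 in 43 of 109 cases (39.4%) and ligands in 25 of 75 (33.3%), against 19.9% of all genes.

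Markers of neighboring cell types and tissues were measured in the same libraries. CR cell markers summed to 587, 592, 469, 436 and 636 CPM, with 9 of 11 detected (81.8%, against 51.9% of all protein-coding genes). Not detected were Calb2, near 0 at no more than 0.423 CPM in any embryo, and Lhx5, at 0.873 to 2.73 CPM. Choroid plexus markers summed to 549, 647, 147, 331 and 525 CPM, and their defining gene Ttr, a thyroid hormone carrier, read 120.4, 161, 5.89, 21.1 and 77.6 CPM. The hem markers and the choroid plexus markers were thus both lowest in embryo 3. Markers of cortical neuroepithelium, at 612, 465, 709, 343 and 549 CPM, and pan-neuronal markers, at 659, 461, 781, 397 and 549 CPM, were instead highest in embryo 3 and lowest in embryo 4. Subpallial markers summed to 23.1 to 75.1 CPM and markers of microglia to 17.9 to 35.9 CPM. Diencephalic markers summed to 107 to 180.2 CPM, and endothelial markers to 26.5 to 91.2 CPM. Of 8 diencephalic markers 4 were detected (50%), among them Lhx9 and Tcf7l2 at 14.0 and 13.5 TPM, and Barhl2 read 25.9 CPM in embryo 2. Gbx2 averaged 0.164 TPM, and Olig3 reached 2.61 CPM in embryo 2 and was at 0 in embryos 3, 4 and 5. Red blood cell markers were highest in embryo 1, at 1451 CPM against 638 to 792 in the others.

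**Figure D5:**
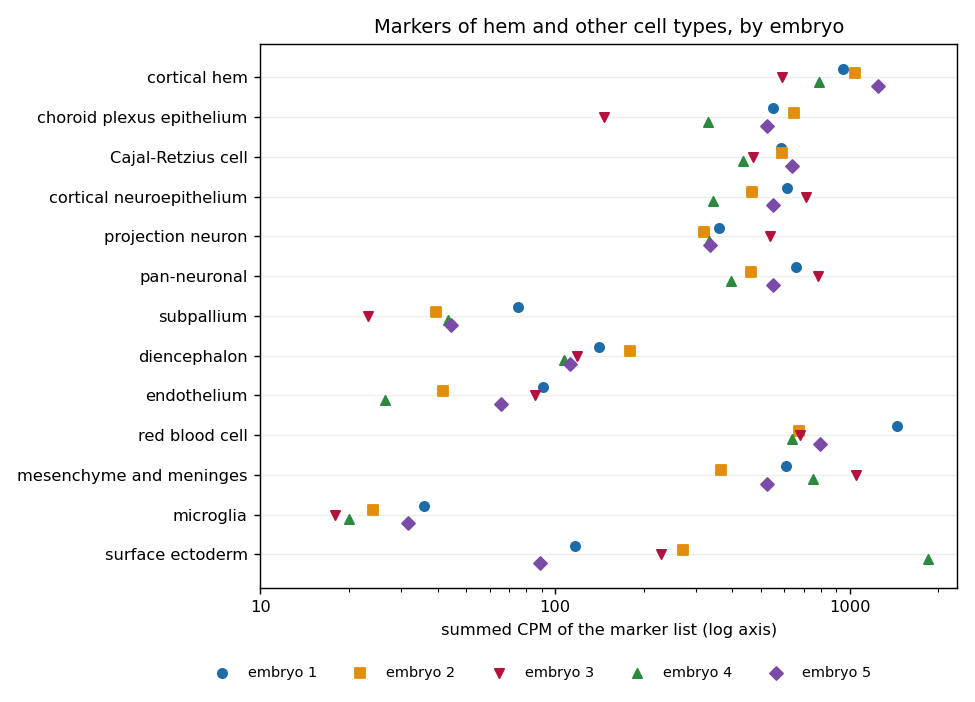
Summed CPM of each cell type marker list in the 5 wild-type embryos, on a log axis with 1 symbol per embryo. Embryo 3 is lowest for the cortical hem list at 591 CPM and for the choroid plexus list at 147 CPM, and highest for the projection neuron list at 537 CPM, while the surface ectoderm list, chosen after the values were seen, reaches 1844 CPM in embryo 4.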

How the data were processed

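The deposited table holds raw counts per gene for 10 libraries, and the 5 wild-type columns were used. By the submitters' processing notes and the study's methods, the authors trimmed paired reads (Trimmomatic), aligned them to GRCm38 with STAR 2.7.1a and counted them over Ensembl release 102 genes with HTSeq 0.11.2. The strand setting is not given in the sources used here. Of 52508 lines, 281 exact repeats were dropped. CPM used the library total, and TPM the merged exon lengths of GENCODE M21, which 92 of 52227 genes lacked. The CV was computed at a mean of at least 10 CPM, which a gene can pass through 1 high embryo.

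The classes held 1077 genes, the marker lists not counted. Classes and marker lists were chosen with earlier results of these data known. 5 listed symbols were not in the table. Genes named are the hem markers, the 10 highest of each class and 2 highest of each family by TPM, the 3 widest and 3 steadiest of each class, detected Wnt, LIM-homeodomain, Zic, BMP and Frizzled genes and marker list members, except that a few are not reported here. Others, such as Gli3, Lgr4, Ptch1, Wnt1 and Shh, were named for their known roles after their values were seen. With 1 group no test was run (the smallest two-sided p of 5 embryos is 0.0625). The spread calculation was tested on simulated data. Alternatives were edgeR 4.0.16 (TMM, dispersion), DESeq2 1.42.0 size factors, other totals, minimums and lengths, and leaving out each embryo. TPM over nuclear protein-coding genes alone was added after seeing the data.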

Additional observations from a re-analysis of the deposited data

Results flagged for a closer look

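In 49 of 268 sets of 5 values examined (18.3%), the highest or lowest embryo lay farther from the nearest of the others than Dixon's 95% limit for 5 samples (0.71 of the range), where chance alone flags about 1 in 20. Embryo 4 was the distant sample in 27 sets, embryo 3 in 11, embryo 1 in 8, embryo 5 in 3 and embryo 2 in 0. The sets share embryos and are not independent. They include the 20 genes of widest spread over these same embryos, of which 20 were among the 49, so the share is in part fixed by that choice and cannot be read against chance.

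In embryo 4 the genes of surface ectoderm and cell junctions read high. Dsp was at 635.5 CPM, Krt5 at 375.2, Krt14 at 175.9, Trp63 at 150.5, Cdh1 at 109.1, Esrp1 at 76.11, Dsg2 at 74.87, Dsc2 at 52.97 and Col17a1 at 38.7 CPM. Among the transcription factors Tbx3 read 89.45 CPM, Klf5 69.1, Twist1 57.4 and Pax3 49.16 CPM there. The high ligands were Cxcl14 at 89.3 CPM, Dkk2 at 84.71, Sostdc1 at 59.51, Igf2 at 56.37, Jag1 at 51.58 and Sema3d at 45.29 CPM. The remaining high values of embryo 4 were Npnt at 191.7 CPM, Gpc3 at 180.9, Rxfp1 at 148.2, Hand2os1 at 52.71, Enpp2 at 52.4, Erbb2 at 49.98 and Fndc1 at 37.67 CPM. E2f5 was instead low in embryo 4, at 23.44 CPM.

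In embryo 3 the distant values were high and included genes of cortical precursors and projection neurons. Sfrp1 read 319.1 CPM, Nr2e1 86.24, Neurod6 61.12, Neurod2 52.61 and Emx1 34.92 CPM, and the projection neuron markers summed to 537.1 CPM. Gpc4 at 110.1, Jun at 69.42, Col8a1 at 51.68, Nrp1 at 47.9 and Fzd8 at 37.22 CPM were also high there.

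In embryo 1 the Y-linked genes Kdm5d at 118.2, Uty at 83.45, Eif2s3y at 67.12 and Ddx3y at 63.92 CPM stood apart from values at or near 0 in the other 4 embryos. The hemoglobin genes Hbb-y at 957.6, Hbb-bs at 138.1 and Hba-a1 at 103.0 CPM were highest in the same embryo, where the red blood cell markers summed to 1451 CPM. In embryo 5 Col2a1 at 422.7 and Bmpr1a at 299.5 CPM were high and mt-Nd6 at 470.1 CPM was low.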

How the results depend on the processing

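No paired analysis was possible because a single group was described. Of 136 alternatives to the scaling, minimums and lengths, 126 left the value within 1 SD (levels) or 1.5 times (counts and shares), as did 131 of 137 that left out 1 embryo, over 29 results. With mitochondrial genes out of the total, mean CPM rose to 95.0 for Lmx1a, 92.0 for Wnt3a, 202 for Wnt2b and 184 for Lmo2, since the total is smaller. At 5 TPM in each embryo, 195 transcription factors, 62 ligands (27.6%) and 73 matrix genes (32.9%) were detected. All protein-coding genes stood at 37.2%, so ligands stayed below that share and matrix genes fell below it. At 10 counts in 3 libraries 156 of 225 ligands passed, a share above the 64.03% of all protein-coding genes. With a minimum of 1 CPM, 43.6% of receptors, 45.9% of transcription factors, 58.5% of ligands, 59.2% of matrix genes and 24.0% of all protein-coding genes ranged 2-fold. Ranking by CPM without length kept 5 of the 10 highest transcription factors. Without 1 embryo at a time, the 2-fold share ran from 20% to 32.0% for transcription factors, 27.0% to 44.0% for ligands, 16.5% to 29.1% for receptors and 31.7% to 47.7% for matrix genes. It moved by over 1.5 times without embryo 3 (transcription factors 21.2%, ligands 27.0%, receptors 17.9%) and without embryo 4 (transcription factors 20%, receptors 16.5%, matrix 31.7%). With any 1 embryo out, 295 to 301 transcription factors, 97 to 99 ligands, 94 to 97 receptors and 131 to 133 matrix genes were detected. With any 1 of the others out, embryo 3 was lowest of the remaining 4 for 32.9% to 40.0% of ligands and 32.2% to 39.5% of receptors. The share of all genes was not computed over 4 embryos. The 14.7% given above is over 5 embryos and cannot be set beside these shares, which rise when fewer embryos can be lowest. Values of single genes and families without embryos 3 or 4, and the mesenchyme sum without Col1a1, were added after seeing the data. On TPM of nuclear protein-coding genes alone, 12752 protein-coding genes (58.2%) were detected. There 135 of 225 ligands passed, a share above that of all genes, so the lower share of ligands depended on the scale and limit. Depth limits little above 10 CPM, while 1 count equals 0.0302 to 0.0515 CPM, so values such as those of Wnt1 and Shh rest on few reads. Reads of overlapping genes, such as Bmp5 and Gas1, cannot be told apart without the strand setting.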

Other observations

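The nuclear protein-coding gene with the highest level in the wild-type hem was Nnat, an imprinted gene of the developing brain, at 3744 ± 1185 TPM (SD, n = 5). Nnat read 3365, 3490.4, 1861, 2454 and 3957 CPM in embryos 1 to 5, so its lowest embryo was embryo 3, as it was for the 5 hem markers. Fabp7, a fatty acid binding protein of radial glia, averaged 1300 ± 179 TPM and read 791, 762, 702, 588 and 761 CPM, with embryo 4 lowest.

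Xist, the RNA of the inactive X chromosome, read 0.982 CPM in embryo 1 and 4515 to 5127 CPM in embryos 2 to 5, the reverse of the Y-linked genes, so the 5 libraries hold 1 male and 4 female embryos by these transcripts. Levels that differ between embryo 1 and the others therefore cannot be told apart from a difference between the sexes.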
